A study of Mus musculus with 2 samples.

Results

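The pumps and channels that move calcium across the endoplasmic reticulum (ER) were compared between D0, the brown preadipocyte stage, and D7, the brown adipocyte stage. The 10 genes were taken by symbol from the table of the series, 10 of 23361 genes with a value in both libraries. They encode the sarco/endoplasmic reticulum calcium ATPases, or SERCA pumps (Atp2a1, Atp2a2, Atp2a3), the ryanodine receptors (Ryr1, Ryr2, Ryr3), the IP3 receptors (Itpr1, Itpr2, Itpr3) and the peptide sarcolipin (Sln). Both libraries came from cells of the interscapular brown adipose tissue of newborn C57BL/6 mice (C57BL/6J in the methods of the study), with 1 library per stage and 2 in all, and pups of either sex were used. All cells were kept for 4 days in medium with insulin and T3. The D0 library was made from cells before induction, and the D7 library from cells that were given IBMX, dexamethasone and indomethacin for 2 days and then insulin and T3 alone, until day 7. The labels call the cells primary cultures, while the methods of the study describe immortalization with large T, and do not say whether cells of several pups were pooled. With 1 library per stage there was no replicate check of any difference, and no p-value was computed.

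SERCA pumps use ATP to carry calcium from the cytosol into the ER, and ryanodine and IP3 receptors let it out again. Sarcolipin, a small membrane peptide known from muscle, lets the pump split ATP while less calcium is carried, so that the energy is released as heat. In beige fat, cycling of calcium through SERCA2b and ryanodine receptor 2 has been described as a way to make heat without uncoupling protein 1. IP3 receptors open when receptors at the cell surface activate phospholipase C, which makes IP3 from a membrane lipid.

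Sequences are shown for the member whose transcript was not seen and for the 3 members whose levels moved most between the libraries on more than a few fragments. Sarcolipin is encoded in 1 exon (mm10, GENCODE M21, chr9:53853473-53853565, plus strand), 93 bases that hold 31 codons and lie within the deposited locus of the gene. The start codon is in capitals.
Sln: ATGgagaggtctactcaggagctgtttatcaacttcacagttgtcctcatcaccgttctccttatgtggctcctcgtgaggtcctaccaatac
For Atp2a3, Itpr2 and Itpr3, the 250 bases before the annotated start are given from RefSeq (GRCm38.p6), on the strand of the gene. Capitals mark the CCAAT box, the GC box GGGCGG and the E-box CACGTG on either strand, and matches of a motif can overlap.
Atp2a3, chr11:72960919-72961168, plus strand: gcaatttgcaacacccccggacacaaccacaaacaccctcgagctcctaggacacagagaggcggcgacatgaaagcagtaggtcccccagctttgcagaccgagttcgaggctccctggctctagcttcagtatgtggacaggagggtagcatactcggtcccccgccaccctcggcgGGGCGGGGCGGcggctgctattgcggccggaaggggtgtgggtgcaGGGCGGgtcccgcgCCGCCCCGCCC
Itpr2, chr6:146502224-146502473, minus strand: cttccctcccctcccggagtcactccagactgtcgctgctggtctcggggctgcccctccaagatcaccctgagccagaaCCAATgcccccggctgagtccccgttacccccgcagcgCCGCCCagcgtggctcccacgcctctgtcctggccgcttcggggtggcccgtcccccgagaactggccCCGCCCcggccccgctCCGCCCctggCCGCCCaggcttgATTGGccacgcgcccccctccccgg
Itpr3, chr17:27057054-27057303, plus strand: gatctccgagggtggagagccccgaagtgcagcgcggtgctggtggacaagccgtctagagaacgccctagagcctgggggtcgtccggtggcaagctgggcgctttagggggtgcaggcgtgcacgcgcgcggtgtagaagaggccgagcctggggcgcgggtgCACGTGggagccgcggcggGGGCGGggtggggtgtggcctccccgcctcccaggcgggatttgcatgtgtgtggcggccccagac
All 3 windows were rich in GC, with 66.8% in Atp2a3, 74.4% in Itpr2 and 72.0% in Itpr3, beside a median of 52.4% over 32851 windows of the same length. They held 20, 22 and 25 CpG, where the median window held 6. GGGCGG was present 5 times in Atp2a3, 4 times in Itpr2 and 1 time in Itpr3, and in 32.7% of all windows. CCAAT was found 2 times in Itpr2 (33.8% of all windows), and CACGTG 1 time in Itpr3 (6.02%). Windows were found for 6 of the 10 genes, the other 3 being Atp2a1, Ryr1 and Ryr2. None of these 6 windows held TATAAA (12.4% of all windows) or the cAMP response element TGACGTCA (1.55%). AGGTCA was found in Atp2a1 and Ryr2 (14% of all windows), and TTGCNNAA in Ryr1 (9.56%). A match describes these letters alone, and binding was not measured.

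The level of a gene is given as FPKM, the fragments of a transcript divided by its length and by the total of the library, as deposited by the authors, so that genes of different length can be set side by side. Single-exon genes were used to work out how many fragments stand behind a value, and the library totals came to 21472000 fragments at D0 and 18266000 at D7. Intervals are exact 95% intervals on these fragments, Poisson for a level and Clopper-Pearson for a ratio, and they cover counting error only. A gene listed at 0 gets 3 fragments as its limit. No ratio is given for a named gene with 3 fragments or fewer in both libraries, and where 1 library alone has so few, the ratio is read with its interval. Adipocyte markers were all higher at D7 (9 of 9 genes, summed FPKM 46.1 at D0 and 19008 at D7), and of 9 brown adipocyte markers 5, Ucp1 among them, were listed at 0 at D0 and none at D7. Of 8 preadipocyte markers, 3 were lower at D7 by at least 2.0-fold and 2 higher. Macrophage markers were also higher at D7 by at least 2.0-fold in 10 of 11 genes (summed FPKM 156 and 583), and smooth muscle markers were lower (4057 and 702). Positions are given in mm10 with GENCODE M21 gene models, in which every member but Atp2a3 and Sln shares its deposited locus with another gene. In these bulk samples, fewer cells of a type and less RNA per cell cannot be told apart.

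Atp2a2 was by far the most abundant of the 10 genes at both stages, and its level was lower at D7. This gene (ENSMUSG00000029467.15, chromosome 5, 122453513 to 122502225, minus strand, 21 exons) encodes SERCA2, the pump of most cell types, and the table does not separate its variants SERCA2a and SERCA2b. Its FPKM was 108 at D0 (95% interval 105 to 110, 8792 fragments) and 74.8 at D7 (72.8 to 76.9, 5196 fragments). At D0 it stood above 96.8% of all genes. The ratio of D7 to D0 was 0.695 (0.672 to 0.720), a log2 ratio of -0.52, which is outside counting error and within 2.0-fold. Gm43361, on the opposite strand, overlaps the gene, and whether strand was used in counting is not given in the sources used here.

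Atp2a3 went the other way. It encodes SERCA3, a pump of lower calcium affinity known from blood cells, endothelium and some epithelia (ENSMUSG00000020788.15, chromosome 11, 72961169 to 72993044, plus strand, 22 exons). Its FPKM was 0.290 at D0 (0.196 to 0.426, 28 fragments) and 1.25 at D7 (1.02 to 1.52, 101 fragments). The D7 level was 4.30 times that at D0 (2.77 to 6.70), a larger ratio than in 92.6% of the genes above 0 in both libraries. With 1 FPKM added to each value the ratio was 1.74, under 2.0-fold. Markers of the cell types in which SERCA3 is known moved unequally. Of the macrophage markers none was at 0, and 10 of 11 were higher at D7, Lyz2 with 111 and 286 and Mrc1 with 0.589 and 21.1. Of the platelet markers, Gp9 was at 0 in both libraries, Pf4 was 1.14 at D0 and 10.4 at D7, Itga2b was 0.515 and 0.639, and Ppbp was 1.34 and then listed at 0. The 9 endothelial markers summed to 5.48 and 5.77, of which Flt1 held 3.75 and 3.05, with 2 of them higher and 2 lower. Tek (0.520 and 1.62) and Kdr (37 and 69 fragments) were higher at D7 like Atp2a3. Cdh5 was lower (0.159 and 0.0288, 13 and 2 fragments), and Esam was lower within counting error (0.111 and 0.0327, 4 and 1 fragments). Tie1 was at 0 and Pecam1 was on 1 fragment in each library. The part of other cells in the level of Atp2a3 was not tested.

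Atp2a1 encodes SERCA1, the pump of fast skeletal muscle (ENSMUSG00000030730.12, chromosome 7, 126445858 to 126463108, minus strand). It was listed at 0 at D0, where 3 fragments would be an FPKM of 0.0424, and at 0.0336 at D7, about 2 fragments. Both values were at or under the limit, so no ratio is given, and its deposited locus also takes in most of Rabep2 on the opposite strand. Together the 3 pumps summed to 108 at D0 and 76.1 at D7, and the ratio of the sums was 0.705 (0.682 to 0.730). Atp2a2 held 99.7% of the sum at D0 and 98.3% at D7, and Atp2a3 0.268% and 1.64%. The level of Atp2a2 was thus 372 times that of Atp2a3 at D0 and 60.03 times at D7.

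**Figure D1:**
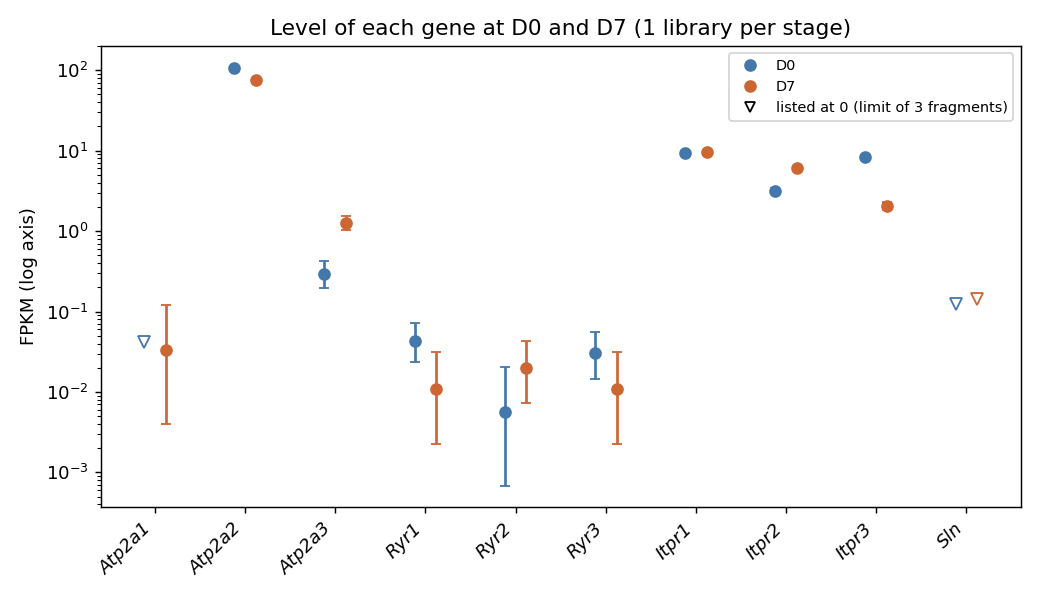
FPKM (log axis) of the 10 genes in the D0 and D7 libraries, 1 library per stage. Points are deposited values, bars are 95% Poisson counting intervals, hidden by the point where narrower, and open triangles mark 3 fragments for genes listed at 0. Atp2a2 lies at 108 and 74.8, the IP3 receptors between 2.06 and 9.59, and the ryanodine receptors under 0.05.

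Sarcolipin was not detected at either stage. Sln (ENSMUSG00000042045.6, chromosome 9, 53850164 to 53854560, plus strand, 2 exons, no overlapping gene) was listed at 0 in both libraries. The limit of 3 fragments corresponds to 0.123 FPKM at D0 and 0.145 at D7, well under the level of Atp2a2. Phospholamban (Pln), its relative from heart and smooth muscle that slows SERCA2, stood at 0.0214 at D0, 1 fragment, and was listed at 0 at D7. Myoregulin (Mrln, listed as 2310015B20Rik), the related peptide of skeletal muscle, was listed at 0 at D0 and at 0.629 at D7. The fragments behind these values were not recovered, so they have no limit or counting interval. Of 15 skeletal muscle markers, Ckm, Myod1 and Cacng1 were at 0 in both libraries, and of the summed 47.4 at D0 and 3.63 at D7 Acta1 held 45.4 and 1.73. The myosin heavy chains Myh1 and Myh2 were higher at D7 like Mrln. Myh1 had 0.0239 and 0.563 (3 and 59 fragments), and Myh2 had 0 and 0.148 (16 fragments at D7). Tnni2 (0.668 and 0, 8 fragments at D0) and Tnnt3 (0.570 and 0.0672, 11 and 1 fragments) were lower. Of the 6 skeletal muscle markers above 0 in both libraries, 1 was higher by at least 2.0-fold and 2 were lower. The part of muscle cells in the level of Mrln was not tested. Of 8 regulators of SERCA that were looked for, 7 were in the table and 4 were above 0 in both libraries. None of the 4 differed by 2.0-fold, and their median log2 ratio was -0.10, beside 0.02 over all genes. Vmp1, an ER protein of autophagy that acts on the pump, was the most abundant with 91.9 and 83.5. Hax1, a partner of phospholamban, had the highest ratio, 0.982, and Tmem64, a membrane protein that binds SERCA2, the lowest, 0.600.

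The order of the IP3 receptors changed, with Itpr3 lower and Itpr2 higher at D7 while Itpr1 stayed in first place. Itpr1 (ENSMUSG00000030102.11, chromosome 6, 108213096 to 108551109, plus strand, 62 exons), the main form of the nervous system and smooth muscle, stood at 9.46 at D0 (9.05 to 9.89) and 9.59 at D7 (9.14 to 10.06). Its ratio of 1.01 (0.949 to 1.08) was within counting error on 1969 and 1697 fragments, and it was under 1 when scaled to TPM (0.993) or by the library median (0.793). Neuron markers, for comparison, summed to 102 and 21.1, of which Tubb3 held 101 and 18.0, while Map2 was higher at D7 (0.349 and 3.04) and Rbfox3 was at 0 in both libraries. Itpr2 (ENSMUSG00000030287.15, chromosome 6, 146108299 to 146502223, minus strand, 57 exons), known from heart and liver, had 3.18 at D0 (2.92 to 3.46) and 6.07 at D7 (5.68 to 6.48). This was a ratio of 1.91 (1.71 to 2.12) on 557 and 903 fragments, outside counting error but under 2.0-fold. Itpr3 (ENSMUSG00000042644.9, chromosome 17, 27057304 to 27122223, plus strand, 58 exons), the form of many epithelia, had 8.23 at D0 (7.83 to 8.65) and 2.06 at D7 (1.84 to 2.29). It was 4.00-fold lower at D7 (3.55 to 4.52) on 1558 and 331 fragments, and 3.85% of the genes above 0 in both libraries had a lower ratio. The gene Itpr3os lies on the opposite strand within the locus of Itpr3.

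The 3 IP3 receptors together summed to 20.9 at D0 and 17.7 at D7, with a D7 to D0 ratio of 0.848 (0.808 to 0.890). Itpr1 held 45.3% of this sum at D0 and 54.1% at D7, Itpr2 15.2% and 34.2%, and Itpr3 39.4% and 11.6%. At D0 Itpr1 stood at 1.15 times and at D7 at 4.66 times the level of Itpr3. Itpr2 was 0.387 times the level of Itpr3 at D0 and 2.95 times at D7, so that the order of these genes turned over. These relative levels are within a library and do not depend on scaling between libraries. The smooth muscle markers, of which 4 of 7 were lower at D7 and none higher, were lower together with Itpr3. Itpr1, the form named above as known from smooth muscle, was not lower with them (9.46 and 9.59). The part of smooth muscle cells in the level of either gene was not tested.

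**Figure D2:**
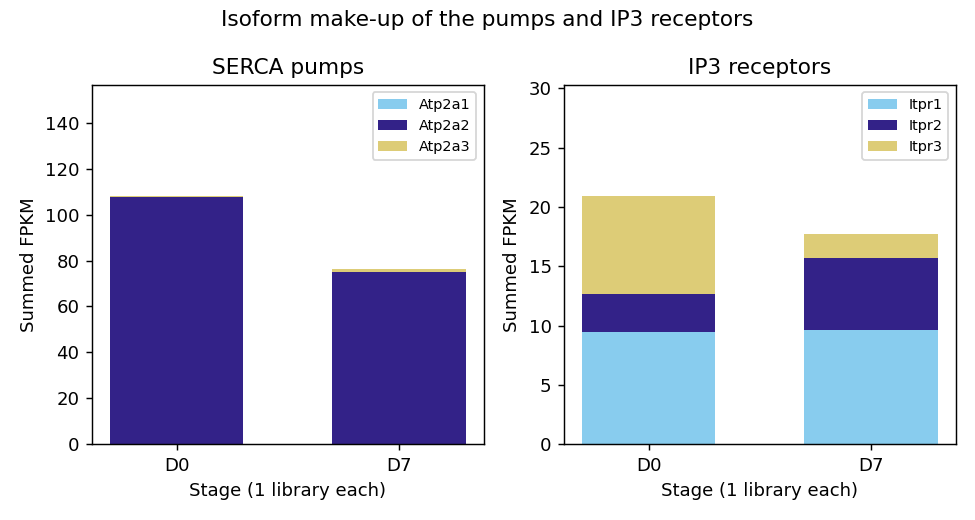
Summed FPKM (axes from 0) of the 3 SERCA pumps (left) and the 3 IP3 receptors (right) in the D0 and D7 libraries, split by gene. Atp2a2 fills nearly the whole of both pump bars, while the Itpr3 segment shrinks from 39.4% to 11.6% and the Itpr2 segment widens from 15.2% to 34.2%.

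The ryanodine receptors were close to the limit of detection at both stages. Ryr1 (ENSMUSG00000030592.18, chromosome 7, 29003344 to 29125179, minus strand, 106 exons), the release channel of skeletal muscle, stood at 0.0429 at D0 and 0.0108 at D7, from 14 and 3 fragments. The ratio was 0.252 (0.0464 to 0.903), with an interval that ends close to 1. Ryr2 (ENSMUSG00000021313.16, chromosome 13, 11553102 to 12106945, minus strand, 105 exons), the channel of the heart and of the thermogenic cycle described in beige fat, had 0.00560 and 0.0197, from 2 and 6 fragments. Its ratio of 3.53 (0.631 to 35.7) was within counting error. Ryr3 (ENSMUSG00000057378.15, chromosome 2, 112631355 to 113217096, minus strand, 104 exons), expressed at low levels in many tissues, had 0.0306 and 0.0108, from 10 and 3 fragments, a ratio of 0.353 (0.0624 to 1.37), also within counting error. Aven, on the opposite strand, overlaps one end of Ryr3. Transcripts of this length give many fragments for a given FPKM, so that 3 fragments of Ryr2 would be 0.00840 at D0 and 0.00987 at D7. The summed FPKM of the 3 channels was 0.0791 and 0.0414, on 26 and 12 fragments, a ratio of 0.523 (0.240 to 1.07). Together the IP3 receptors stood at 264 times the level of the ryanodine receptors at D0 and 428 times at D7. Among cardiac muscle markers Myh6 and Myl7 were at 0 in both libraries and the sum of 9 genes was 3.40 and 3.26. Within this sum Myl3 was higher at D7 (0.0648 and 1.38, 1 and 19 fragments) and Nppa lower (0.860 and 0.169, 13 and 2 fragments).

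**Figure D3:**
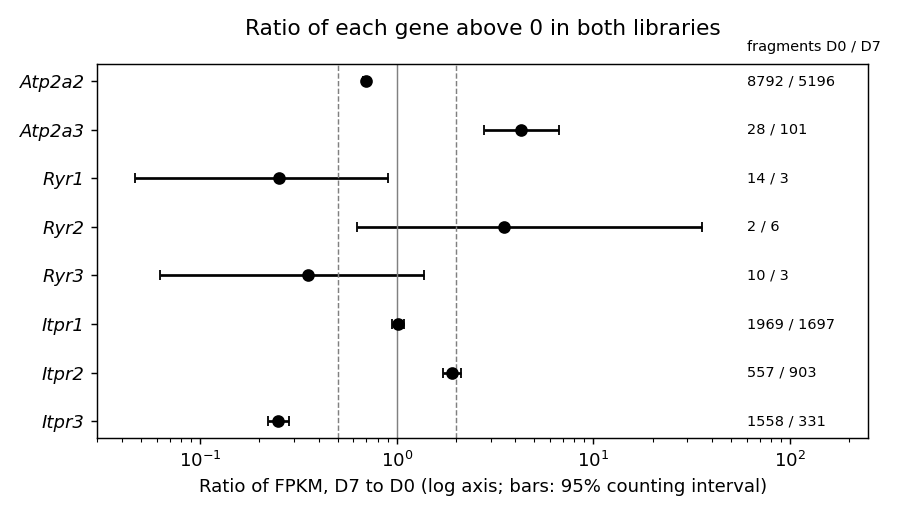
Ratio of FPKM at D7 to D0 (log axis) for the 8 genes above 0 in both libraries, with 95% Clopper-Pearson counting intervals and the fragments at D0 and D7 at the right. The solid line marks 1 and the dashed lines 0.5 and 2.0; intervals are narrow for Atp2a2 and the IP3 receptors and wide for Ryr1, Ryr2 and Ryr3.

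In the order of levels at D0, Atp2a2 was followed by Itpr1, Itpr3, Itpr2 and Atp2a3, with counting intervals that did not overlap between neighbours. Ryr1, Ryr3 and Ryr2 came next, each overlapping its neighbour. At D7 the order was Atp2a2, Itpr1, Itpr2, Itpr3 and Atp2a3, again without overlap, and then Atp2a1, Ryr2, Ryr1 and Ryr3, which overlapped. The genes nearest to a leading member in log2 FPKM over both libraries, out of 14985 genes, were found for each family. For Atp2a2 they were Rap1b (109 and 73.9, distance 0.0237), a gene whose symbol in the table has the form of a date (109 and 76.1), and Tspan31 (107 and 72.8). For Itpr1 they were Ipo11 (9.55 and 9.79, distance 0.0321), Tyw1 and Gramd3. For Ryr1 they were AI593442 (0.0428 and 0.0101, distance 0.103), Dgkg (0.0350 and 0.0103) and Bcl11a (0.0358 and 0.00923), all at low levels. These are descriptions over 2 libraries.

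Counted by the 2.0-fold threshold of the study, 2 of the 8 members above 0 in both libraries were higher at D7 (Atp2a3 and Ryr2) and 3 were lower (Itpr3, Ryr1 and Ryr3). Of all 14986 genes above 0 in both libraries, 18.5% were higher (2767 genes) and 13.2% were lower (1980 genes). Where the counting interval also had to exclude 1, Atp2a3 remained among the higher members and Itpr3 and Ryr1 among the lower, against 15.6% and 11.4% of 14719 genes. Where either library reached an FPKM of 1, 1 of 5 members was higher (Atp2a3) and 1 lower (Itpr3). Of the 12057 genes that reached it, 1870 were higher and 1430 lower, counted among those above 0 in both libraries. With so few members, the counts do not set these genes apart from the table. In another scaling, values under 0.01 are set to 0.01 and each library is divided by its median. Log2 ratios of genes at 0.01 or more in both libraries are then lower by 0.35. Ryr2, under 0.01 at D0 (0.00560), has a ratio of 1.55 in this scaling and is not among the higher members. All 23361 genes with a value were counted here, also those at 0, a larger set than the 14986 genes above. Of these, 2836 were higher and 3832 lower. The higher members are Atp2a1, at its floor at D0, and Atp2a3.

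Genes around the release channels were read next, from lists written by role. Beside the counts of each list stand the shares over all genes above 0 in both libraries, 18.5% higher and 13.2% lower. The median log2 ratio of those genes was 0.02. Of 24 partners of ryanodine receptors and of the junctions where they lie, 22 were above 0 in both libraries. Of these, 3 were higher and 9 lower, and the median log2 ratio was -0.74. These counts include Homer2 as higher on 1 and 2 fragments and Stac3 as lower on 3 and 1. Calm2, which encodes calmodulin, a calcium sensor that binds the channel, was the most abundant, with 425 at D0 and 205 at D7 (ratio 0.483). S100a1, a calcium-binding protein that acts on ryanodine receptors and on SERCA in muscle, had 26.9 and 216, a ratio of 8.04 (7.09 to 9.12). Jph2, the junctophilin that ties the ER to the cell membrane in heart and smooth muscle, had 31.8 and 4.33, a ratio of 0.136 (0.121 to 0.153). Jph2 was lower together with the smooth muscle genes Acta2 (2164 and 319) and Cnn1 (262 and 25.4). Tagln (1523 and 308) and Lmod1 (39.4 and 14.0) were also lower by at least 2.0-fold. Myh11 (40.3 and 21.6), Smtn (21.1 and 11.0) and Des (5.74 and 3.03) were lower but within 2.0-fold. The part of smooth muscle cells in the level of Jph2 was not tested.

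Upstream of the IP3 receptors, 11 of 12 phospholipase C genes were above 0 in both libraries, with 3 higher, none lower and a median log2 ratio of 0.29. Plcg1, activated by growth factor receptors, was the most abundant (21.5 and 20.9). Plcb1, activated by G proteins of the Gq class, had 0.650 and 4.14, a ratio of 6.37 (5.12 to 8.04), and Plcd1 the lowest ratio, 0.625. Among 10 genes of IP3 turnover and IP3 receptor partners, 3 were higher and none lower, and the median was -0.27. Grina, an anti-apoptotic membrane protein, was the most abundant, with 103 and 226 (ratio 2.18). Itpka, a kinase that turns IP3 into IP4, was on 1 fragment at D0 and 77 at D7, FPKM 0.0286 and 2.59, a ratio of 90.7 (15.8 to 3628). Bok, a relative of BCL2 that binds IP3 receptors, had the lowest ratio, 0.513.

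Store-operated entry refills the ER after release. Of its 10 genes, 1 was higher and 1 lower at D7, and the median log2 ratio was -0.05. Stim1, the sensor of calcium in the ER lumen, was the higher gene, with 12.8 and 61.0, a ratio of 4.78 (4.47 to 5.11). Saraf, listed as Tmem66, which shuts the entry off, was the most abundant (95.4 and 80.0), and Cracr2a, listed as Efcab4b, was lower with 1.07 and 0.360 on 21 and 6 fragments. Of 17 calcium buffers and chaperones of the ER, 1 was higher and 5 lower, with a median of -0.68, where Atp2a2 had -0.52. Calr, which encodes calreticulin, the main calcium buffer of the ER, had 816 and 509 (ratio 0.624), Rcn1, a reticulocalbin, had 132 and 38.7 (0.293), and Calr3 had 0.750 and 3.40 (4.54).

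Other routes for calcium moved in both directions. Of 9 other calcium pumps and exchangers, 5 were above 0 in both libraries, 1 was higher, 1 lower, and the median was 0.02. The Golgi pump Atp2c1 was the most abundant (15.5 and 14.3), the plasma membrane pump Atp2b4 had the highest ratio where either library reached an FPKM of 1 (1.72), and the sodium/calcium exchanger Slc8a1 the lowest (0.251). For mitochondrial calcium uptake and contacts with the ER, 4 of 19 genes were higher and 1 lower, with a median of 0.16. Hspa9, a chaperone that links IP3 receptors to mitochondrial pores, had 236 and 431 (1.83), Mcur1, listed as Ccdc90a, a regulator of the uniporter, had 5.59 and 32.6 (5.84), and Mcub, listed as Ccdc109b, its inhibitory subunit, had 23.0 and 8.24 (0.358). In the scaling by the library median, the medians of phospholipase C (-0.07), of the other pumps (-0.34) and of the mitochondrial genes (-0.19) turned negative.

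**Figure D4:**
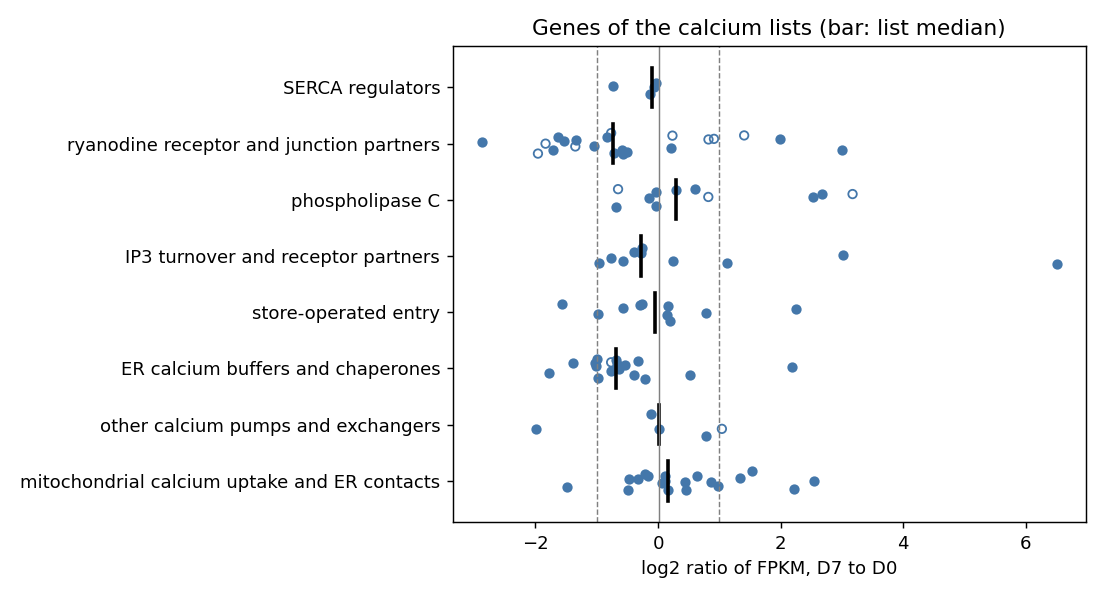
log2 ratio of FPKM at D7 to D0 for genes of 8 calcium lists that were above 0 in both libraries, 1 point per gene. Vertical bars are list medians, the grey line is the median of all genes (0.02), dashed lines mark 2.0-fold and open points are genes with FPKM under 1 in both libraries; medians run from -0.74 for ryanodine receptor partners to 0.29 for phospholipase C, and the point farthest to the right is Itpka.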

How the data were processed

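RNA-Seq values of 1 library at D0 and 1 at D7 were used, with 2 samples in all. After filtering, the authors mapped reads with up to 5 mismatches to mm10 and its gene sequences. The aligner is SOAP2 in the methods of the study and Bowtie2, without a version, in the submitters' processing notes. The deposited table gives each gene an FPKM value for D0 and for D7. Libraries were made with removal of the second strand. The sources used here do not give whether strand was used in counting. Of 27324 rows, 23361 held values. FPKM ratios were computed without a pseudocount or rescaling, for genes above 0 in both libraries, and called at 2.0 or 0.5. The 2.0-fold threshold is that of the study, whose methods name no floor, pseudocount or rescaling.

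Fragments were recovered from 607 single-exon genes of at least 600 bp whose ends lay within 500 bp of those in GENCODE M21. With 179 bp (D0) and 182 bp (D7) taken off each length, 100% of the 81 and 89 values between 1 and 20 fragments lay within 0.1 of a whole number. In other genes the named transcript gave the length, so fragments are approximate. Limits were set at 3 fragments. Counts of genes include every gene above 0 in both libraries unless a filter is named. Counts with a pseudocount or in the scaling by the library median cover all 23361 genes with a value, also those at 0.

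The members, the lists and the scaling by the library median were chosen with earlier results of these data known. All members were named, and of each calcium list the gene of highest mean FPKM and those of highest and lowest ratio with FPKM of at least 1 in a library, Pln beside Sln, and the 3 genes nearest in log2 FPKM to the leading gene of each family. Other genes of the lists, and markers named beside a result, were chosen after their values were seen. Of 199 list entries, 198 were found, 12 under older symbols. Alternatives were pseudocounts of 0.1 and 1, filters at FPKM 0.1 and 1, scaling by TPM, by the median ratio, by the upper quartile and by the library median after setting values under 0.01 to 0.01, a threshold of 4.0, summed rows of one symbol, and calls by the counting interval. The scripts were tested on simulated data. The software was Python 3.11.15 with scipy 1.17.1, numpy 2.4.6, matplotlib 3.10.9 and pandas 2.3.3.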

Additional observations from a re-analysis of the deposited data

How the results depend on the processing

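The 2 higher members became 1 with a pseudocount of 0.1, with filters at FPKM 0.1 or 1, at 4.0-fold and by the counting interval, and 0 with a pseudocount of 1. The 3 lower members became 1 with pseudocounts of 0.1 and 1, with both filters and at 4.0-fold. Of all 23361 genes with a value, 2638 were higher and 1788 lower with a pseudocount of 0.1, and 1533 and 1021 with a pseudocount of 1. Of the 14986 genes above 0 in both libraries, 1211 were higher and 578 lower at 4.0-fold. Among the same genes, the filter at FPKM 0.1 left 2572 higher and 1885 lower, and the filter at FPKM 1 left 1870 and 1430. Scaling by the library median, after setting values under 0.01 to 0.01, gave 3832 lower genes of the 23361 with a value. The ratios were 0.552 for the summed SERCA pumps and 0.664 for the summed IP3 receptors. In that scaling the list medians of log2 ratios were -0.45 for SERCA regulators, -0.62 for IP3 turnover, -0.40 for store-operated entry, -1.03 for ER buffers, -0.34 for other pumps and -0.19 for mitochondrial uptake. TPM gave -0.71 for ER buffers. Of single members, the ratio was 1.74 for Atp2a3 and 0.331 for Itpr3 with a pseudocount of 1, and 0.545 for Atp2a2 and 1.49 for Itpr2 in the scaling by the library median. Calls of Ryr1, Ryr2 and Ryr3 rest on at most 14 fragments per library, and they are absent under either filter. Since the D0 and D7 libraries have no replicate, the spread between cultures is not known. No paired analysis was possible because each stage has 1 library.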
